A study of Mus musculus with 6 samples.

Results

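Matrix metalloproteinases and their tissue inhibitors, the TIMPs, were followed between 3 and 7 days after a spinal cord injury in RNA bound to macrophage ribosomes. Of the 10 genes named for this family (Mmp2, Mmp8, Mmp9, Mmp12, Mmp13, Mmp14, Mmp19, Timp1, Timp2 and Timp3), 9 have a row in the deposited table of 13940 gene symbols. Mmp14, the membrane-bound metalloproteinase that activates the Mmp2 proenzyme, has no row and is not analysed here. The genes were chosen by symbol. All 9 passed the quality rules for testing, and no filter on low values was applied.

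Every library came from the injury site of mice given a T8 contusion (a blunt thoracic injury). The animals were LysMCre:Rplfl/fl > CD45.1 chimeras, with CD45.1 as the labelled strain. In RiboTag mice, Cre adds an epitope tag to a ribosomal protein. Tagged ribosomes are then precipitated together with the messages they carry. In mice that carry it, LysM-Cre is active in macrophages and monocytes, and also in neutrophils and part of the microglia. The tag is therefore not limited to one cell type. In a chimera only cells that come from the LysMCre:Rplfl/fl animals can carry the tag. Whether any microglia did so is not given in the sources used here. The study compared 3 libraries at 3 days with 3 at 7 days. The samples hold neither uninjured cord nor input RNA from before the precipitation, and animal age is not given in the sources used here. Nothing in the labels ties the libraries to separate animals. The p-values therefore reflect the spread among 3 libraries per time, which may be technical.

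Matrix metalloproteinases are zinc-dependent proteases that cut collagens, elastin, laminins and many soluble proteins. Most are made as inactive proenzymes and are activated when the propeptide is removed. TIMPs occupy the active site and block it. In injured cord these enzymes are known for opening the vascular barrier, for the entry of leukocytes and for later clearance and remodelling of matrix.

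Before any statistics, the start regions of Mmp12, Mmp13 and Mmp8 are shown. These genes lie in 1 cluster on chromosome 9, and 2 of them rose while 1 fell. The sequences are the 250 bases before the RefSeq start (GRCm38.p6, the same coordinates as mm10), 5′ to 3′ on the plus strand. For Mmp12, which has another RefSeq start further upstream, the start nearest to the locus of the deposited table is shown. Capitals mark TGANTCA, a sequence bound by AP-1 (dimers of Fos and Jun proteins), searched on both strands.
Mmp12, chr9:7347124-7347373: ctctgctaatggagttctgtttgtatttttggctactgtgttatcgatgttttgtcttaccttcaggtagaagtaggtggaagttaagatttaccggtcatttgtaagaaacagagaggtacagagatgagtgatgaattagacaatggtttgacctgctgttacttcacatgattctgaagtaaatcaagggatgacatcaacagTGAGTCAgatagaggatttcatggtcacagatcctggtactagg
Mmp13, chr9:7272264-7272513: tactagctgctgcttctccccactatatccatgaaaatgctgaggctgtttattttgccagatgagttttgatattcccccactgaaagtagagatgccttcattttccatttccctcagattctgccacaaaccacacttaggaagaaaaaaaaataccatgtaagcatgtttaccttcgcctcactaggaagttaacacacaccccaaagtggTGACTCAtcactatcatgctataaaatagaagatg
Mmp8, chr9:7558179-7558428: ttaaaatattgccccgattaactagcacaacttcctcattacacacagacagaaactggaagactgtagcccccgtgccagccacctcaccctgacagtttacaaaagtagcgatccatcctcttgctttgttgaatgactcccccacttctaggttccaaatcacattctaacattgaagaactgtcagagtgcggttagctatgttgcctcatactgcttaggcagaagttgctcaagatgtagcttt
The AP-1 letters stand 44 to 38 bases before the start in Mmp12 and 35 to 29 bases before it in Mmp13. Mmp2, Mmp9 and Mmp19 had no entry in the RefSeq promoter set used and were not searched. The AP-1 letters were found in 2 of the 7 family genes searched (Mmp8, Mmp12, Mmp13, Mmp14, Timp1, Timp2 and Timp3). They were found in 6.75% of 32851 mouse promoter windows of the same length. The letters AGGAAG, bound by Ets factors of the PEA3 group, were found on either strand in 6 of these 7 genes (all but Timp2, and in Mmp12 only before the upstream start, whose window is not shown) and in 29.5% of all windows. In none of the windows of the family genes did the 2 motifs overlap. The counts are of genes, with 8 windows searched for the 7, whereas the percentages are of windows. A match describes the letters only.

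Expression is given as FPKM, fragments scaled to transcript length and to sequencing depth, as the authors computed it. FPKM is scaled to length, so levels of different genes can be compared. The number of reads behind a value is unknown. Differences are of log2(FPKM + 1), 7 days minus 3 days, with their SE, tested by limma over 13042 genes with Benjamini-Hochberg adjustment. The threshold for a call was an adjusted p of 0.05. The pseudocount of 1 FPKM makes the log2 difference smaller than the true one for genes at low levels. With 3 libraries a time, the smallest p that an exact two-sided permutation test allows is 0.1, so such a test could not reach the threshold for a single gene.

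At 7 days Mmp12, Mmp8 and Timp2 were higher, and Mmp9, Mmp13, Mmp19, Timp1 and Timp3 were lower. Mmp2 was not called. By limma, 3 of the 9 genes were thus called higher, beside 18.8% of all tested genes, and 5 were called lower, beside 20.3% of all. The same 3 genes had all 7-day libraries above all 3-day libraries, which held for 26.8% of tested genes, and the same 5 had them all below, which held for 28.6%. The median log2 difference of the 9 genes was -0.43, and that of all tested genes was -0.04.

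**Figure D1:**
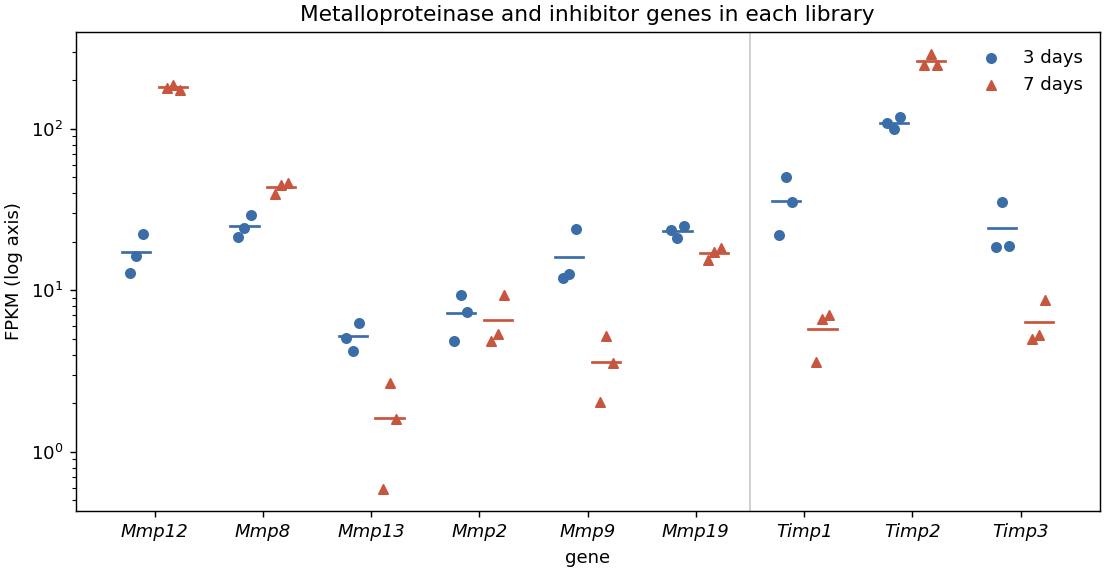
FPKM (log axis) of the 9 genes in each library, with circles for 3 days, triangles for 7 days and a short line at each mean of 3 libraries. The times do not overlap in any gene but Mmp2, and Mmp12 moves from between 12.8 and 22.3 FPKM to between 175 and 187 FPKM.

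Libraries of 1 time were alike across genes, with Pearson r of log2 values from 0.964 to 0.983 within a time and from 0.912 to 0.938 between times (across genes, which are not independent replicates). The 3-day replicate 3 stood apart in its most abundant genes: the top 50 held 27.6% of its summed FPKM over tested genes, against 14.6% and 14.9% in the other 3-day libraries and 17.4% to 19.7% at 7 days. Its summed FPKM was 412886, against 332599 and 338215 in the other 3-day libraries. Among the 3-day libraries, 6 of the 9 genes were highest in it, and leaving it out cost the calls of Mmp13 and Mmp19. Genes at 1 FPKM or more numbered 11147 to 11675 at 3 days and 10248 to 10402 at 7 days. Marker genes were checked against the label. The 7 tested macrophage markers summed to 1184 to 1367 FPKM at 3 days and 1184 to 1251 FPKM at 7 days. Of these markers 2 were called higher and 3 lower, beside 18.8% and 20.3% of all tested genes. Lyz2, the gene whose promoter drives the Cre, was not tested, because it is listed at 0 in 7-day replicate 3 beside 9435 and 5862 FPKM in the other 7-day libraries. Cd68, Adgre1 and Mrc1 have no row under those symbols. Adgre1 is listed under its older symbol Emr1, which did not pass the quality rules and was not tested. Emr1 measured 204, 219 and 240 FPKM at 3 days and 390, 444 and 458 FPKM at 7 days. It is not part of the macrophage sums above. Markers of neurons, astrocytes, oligodendrocytes and fibroblasts were also present and are given below beside the genes they move with. In these bulk precipitates, fewer cells of a type, less RNA per cell and a different share of RNA from untagged cells cannot be told apart.

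The elastase Mmp12 changed most. Mmp12 (chromosome 9, 7344381 to 7369499, plus strand, GENCODE M21) encodes macrophage elastase, which degrades elastin and other matrix proteins. It measured 12.8, 16.4 and 22.3 FPKM at 3 days and 180.1, 187 and 175 FPKM at 7 days. The lowest 7-day library stood far above the highest 3-day library, and the 7-day libraries differed little among themselves. The means were 17.2 ± 4.81 and 181 ± 6.16 FPKM (SD, n = 3 each), a 10.5-fold difference. The log2 difference was 3.35 ± 0.18 (SE; limma adjusted p = 8.80e-05). Under all 16 alternatives it lay between 3.17 and 3.55.

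The collagenases Mmp8 and Mmp13 moved in opposite directions. Both cut fibrillar collagen. Mmp8 (chromosome 9, 7558456 to 7568485, plus strand) is best known as a neutrophil granule enzyme. It measured 21.3, 24.4 and 29.2 FPKM at 3 days and 39.6, 44.6 and 46.2 FPKM at 7 days, and each 7-day library was above each 3-day library. The means of 24.9 ± 3.97 and 43.5 ± 3.46 FPKM (SD, n = 3 each) gave a log2 difference of 0.79 ± 0.13 (SE; limma adjusted p = 0.00434).

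Most tested neutrophil markers did not rise with Mmp8, and their median log2 difference was -0.78. Of 9 tested neutrophil markers, 1 was called higher (S100a8, an alarmin subunit) and 4 were called lower (S100a9, Cxcr2, Lcn2 and Prtn3), all named after their values were seen. Among all tested genes, 18.8% were called higher and 20.3% lower. The summed level of the 9 tested neutrophil markers was 53.5 to 61.4 FPKM at 3 days and 32.2 to 50.2 FPKM at 7 days. Within it, S100a8 had means of 18.2 ± 3.73 and 28.1 ± 5.81 FPKM. Mpo was at 0 in all 7-day libraries, and Ly6g, Elane and Retnlg have no row. Csf3r did not pass the quality rules and was not tested. It measured 10.5, 11.4 and 12.3 FPKM at 3 days and 26.6, 26.1 and 23.4 FPKM at 7 days. The part of neutrophil RNA in the Mmp8 and Mmp9 values was not tested.

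Mmp13 (chromosome 9, 7272514 to 7283331, plus strand) was low and fell further. It measured 5.04, 4.24 and 6.29 FPKM at 3 days and 0.589, 2.67 and 1.59 FPKM at 7 days. No 7-day library reached the 3-day range, although the 7-day libraries differed widely among themselves. The log2 difference was -1.31 ± 0.31 (SE; limma adjusted p = 0.0146). Without 3-day replicate 3 the adjusted p was 0.0542.

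The 3 chromosome 9 genes sit in a cluster of 10 metalloproteinase genes that spans 427072 bases in GENCODE M21, from Mmp13 to Mmp7. Only 4 of the 10 have a row: Mmp13, Mmp12, Mmp8 and Mmp27. Mmp27, a little-studied relative, begins 2910 bases after the end of Mmp8 on the same strand. It measured 5.15, 6.23 and 9.10 FPKM at 3 days and 18.7, 20.3 and 22.1 FPKM at 7 days. It rose with a log2 difference of 1.48 ± 0.19 (SE; limma adjusted p = 0.00158). Its level relative to Mmp8 was 0.242 to 0.312 at 3 days and 0.456 to 0.478 at 7 days, higher in every 7-day library. The cluster thus held 3 genes that rose and 1 that fell. The riser Mmp12 and the faller Mmp13 are the ones with AP-1 letters among the 7 family genes searched.

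**Figure D2:**
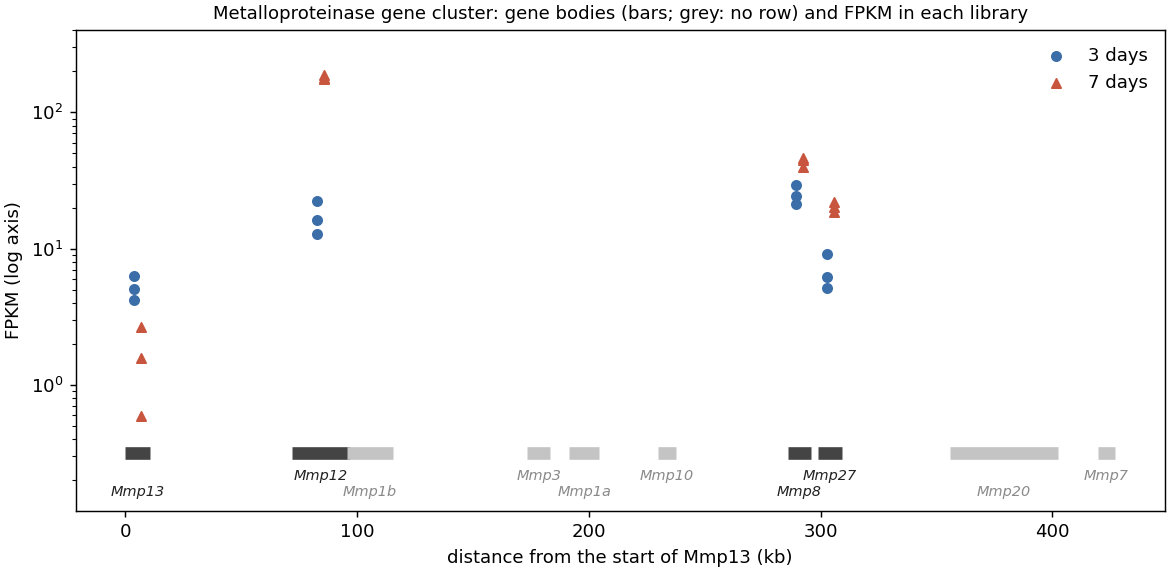
FPKM (log axis) in each library at the position of each gene of the metalloproteinase cluster, in kilobases from the start of Mmp13, with circles for 3 days, triangles for 7 days and bars for gene bodies (grey where the gene has no row). Mmp12, Mmp8 and Mmp27 are higher at 7 days and Mmp13 is lower.

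The gelatinases Mmp9 and Mmp2, which cut denatured collagen and basement membrane, differed from each other. Mmp9 (chromosome 2, 164940780 to 164955850, plus strand), an enzyme of activated leukocytes, measured 11.9, 12.7 and 23.9 FPKM at 3 days and 2.03, 5.20 and 3.54 FPKM at 7 days. The 3-day replicate 3 was about as high as the other 3-day libraries together, and all 7-day libraries were below all 3-day libraries. The means fell from 16.2 ± 6.70 to 3.59 ± 1.58 FPKM (SD, n = 3 each), with a log2 difference of -1.90 ± 0.33 (SE; limma adjusted p = 0.00487). Without 3-day replicate 3 the difference was -1.59 (adjusted p = 0.0161). Lcn2, whose protein binds Mmp9, fell from 3.83 ± 1.51 to 0.378 ± 0.0720 FPKM. Mmp25, a membrane-anchored leukocyte metalloproteinase, was low at 3 days (0.165 to 1.0004 FPKM) and listed at 0 in every 7-day library. Its limma adjusted p was 0.0567, and 0.0232 with a pseudocount of 0.1 FPKM.

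Mmp2 (chromosome 8, 92827291 to 92853420, plus strand), an enzyme made mainly by stromal cells, measured 4.88, 9.38 and 7.37 FPKM at 3 days and 4.83, 5.36 and 9.36 FPKM at 7 days. The times overlapped almost completely. The log2 difference was -0.14 with a 95% interval from -0.80 to 0.52 (limma adjusted p = 0.713), so neither a moderate fall nor a moderate rise can be told from no change. Mmp2 was highest in 3-day replicate 2 and 7-day replicate 3. Timp1, Timp3 and the summed markers of fibroblasts and pericytes, astrocytes and oligodendrocytes were highest in the same 2 libraries. Timp4 and the neuron and endothelial sums were also highest in 3-day replicate 2, but at 7 days in replicate 1. The microglia and neutrophil sums were highest in replicate 2 at both times.

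Mmp19 (chromosome 10, 128790910 to 128800824, plus strand), which cuts basement membrane proteins, had the smallest called difference of the 9 genes. It measured 23.6, 20.99 and 24.95 FPKM at 3 days and 15.5, 17.4 and 18.2 FPKM at 7 days. The groups did not overlap, but the gap between them was narrow. The log2 difference was -0.43 ± 0.11 (SE; limma adjusted p = 0.0225). It was not called with libraries centred on the median gene (adjusted p = 0.0715), or without 3-day replicate 3 (0.0700), 7-day replicate 1 (0.0792) or 7-day replicate 2 (0.0599). Its 3′ end overlaps Tmem198b on the other strand, which shares its locus in the deposited table and had a log2 difference of -0.01 ± 0.15.

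The inhibitors divided as the enzymes did. Timp2 (chromosome 11, 118301069 to 118355740, minus strand), which blocks most metalloproteinases and takes part in the activation of the Mmp2 proenzyme, was the most abundant of the 9 genes at both times. It measured 109, 99.8 and 118 FPKM at 3 days and 248, 291 and 248 FPKM at 7 days. Each 7-day library was far above all 3-day libraries. The means of 109 ± 9.14 and 262 ± 24.6 FPKM (SD, n = 3 each) differed by 1.26 ± 0.11 on the log2 scale (SE; limma adjusted p = 5.45e-04).

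Timp1 (chromosome X, 20870166 to 20874735, plus strand), an inducible inhibitor that also binds the Mmp9 proenzyme, showed the largest fall among the 9 genes. It measured 21.9, 50.5 and 35.2 FPKM at 3 days and 3.59, 6.66 and 7.09 FPKM at 7 days. The 3-day libraries differed widely among themselves, yet the lowest of them was above every 7-day library. The means of 35.9 ± 14.3 and 5.78 ± 1.91 FPKM (SD, n = 3 each) gave a log2 difference of -2.41 ± 0.33 (SE; limma adjusted p = 0.00192).

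Timp3 (chromosome 10, 86300372 to 86349506, plus strand) encodes the inhibitor that stays bound to matrix and also blocks ADAM and ADAMTS proteases. It measured 18.6, 35.4 and 18.9 FPKM at 3 days and 4.97, 5.30 and 8.75 FPKM at 7 days. The 3-day replicate 2 stood apart from the other 3-day libraries, and the times did not overlap. The log2 difference was -1.76 ± 0.29 (SE; limma adjusted p = 0.00387). Timp4, the remaining member of the TIMP family, fell from 8.53 ± 4.16 to 2.58 ± 0.359 FPKM (SD, n = 3 each; log2 -1.32 ± 0.31; limma adjusted p = 0.0149). Its adjusted p was 0.0509 without 3-day replicate 3 and 0.0527 without 7-day replicate 3.

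All TIMP genes but Timp2 lie inside synapsin genes. Timp1 lies within the span of Syn1, Timp3 within that of Syn3 and Timp4 within that of Syn2, each on the opposite strand, and the deposited table gives each pair a single locus, which for Timp1 also holds Araf. Whether fragments were counted by strand is not given in the sources used here, so reads of nested partners may not have been told apart. Syn1 fell from 9.47 ± 3.75 to 2.88 ± 0.371 FPKM (log2 -1.38 ± 0.24, SE; limma adjusted p = 0.00513). Timp1 was 3.08 to 4.71 times as abundant as Syn1 at 3 days and 1.40 to 2.54 times at 7 days, so the 2 genes did not move by the same factor. Syn3 measured 2.37 ± 2.08 and 0.556 ± 0.716 FPKM and was not called (log2 -0.97 ± 0.55, SE; limma adjusted p = 0.193). Without 3-day replicate 3 it was called lower (log2 -1.57, adjusted p = 0.0348). Syn2 measured 6.998 ± 3.62 and 2.16 ± 1.37 FPKM, with a limma adjusted p of 0.0483 that lay above 0.05 under 9 alternatives.

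Timp1, Timp3, Timp4 and Mmp2 were highest in 3-day replicate 2 among the 3-day libraries, whereas Mmp8, Mmp9, Mmp12, Mmp13, Mmp19 and Timp2 were highest in 3-day replicate 3. Most markers of 5 other cell types were also highest in 3-day replicate 2: 8 of 8 astrocyte, 7 of 7 oligodendrocyte, 7 of 8 neuron, 7 of 7 fibroblast and pericyte and 5 of 7 endothelial markers. Erythroid markers differed, with 4 of 5 highest in 3-day replicate 3. They fell in 4 of 5 (164 to 213 and 15.9 to 22.4 FPKM), with a median log2 difference of -2.37. Over time, astrocyte markers fell in 5 of 8, with sums of 218 to 613 FPKM at 3 days and 117 to 147 FPKM at 7 days. Neuron markers fell in 8 of 8 (159 to 379 and 55.9 to 70.6 FPKM) and oligodendrocyte markers in 7 of 7 (311 to 621 and 133 to 162 FPKM). Fibroblast and pericyte markers fell in 4 of 7 (128 to 307 and 114 to 204 FPKM). Endothelial markers fell in 5 of 7 and rose in 1 (39.3 to 60.6 and 26.1 to 31.0 FPKM). Markers counted here as fallen or risen were called by limma, beside 20.3% called lower and 18.8% called higher among all tested genes. No marker of these 5 lists with a row was at 0 in all 7-day libraries. Without 3-day replicate 2, Timp1 still differed by -2.13 (adjusted p = 0.00850) and Timp3 by -1.46 (adjusted p = 0.00973), and Mmp2 by 0.05 (adjusted p = 0.909). The part of RNA from these cell types in the falls of Timp1, Timp3 and Timp4, and in those of the protease and matrix genes given below, was not tested.

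**Figure D3:**
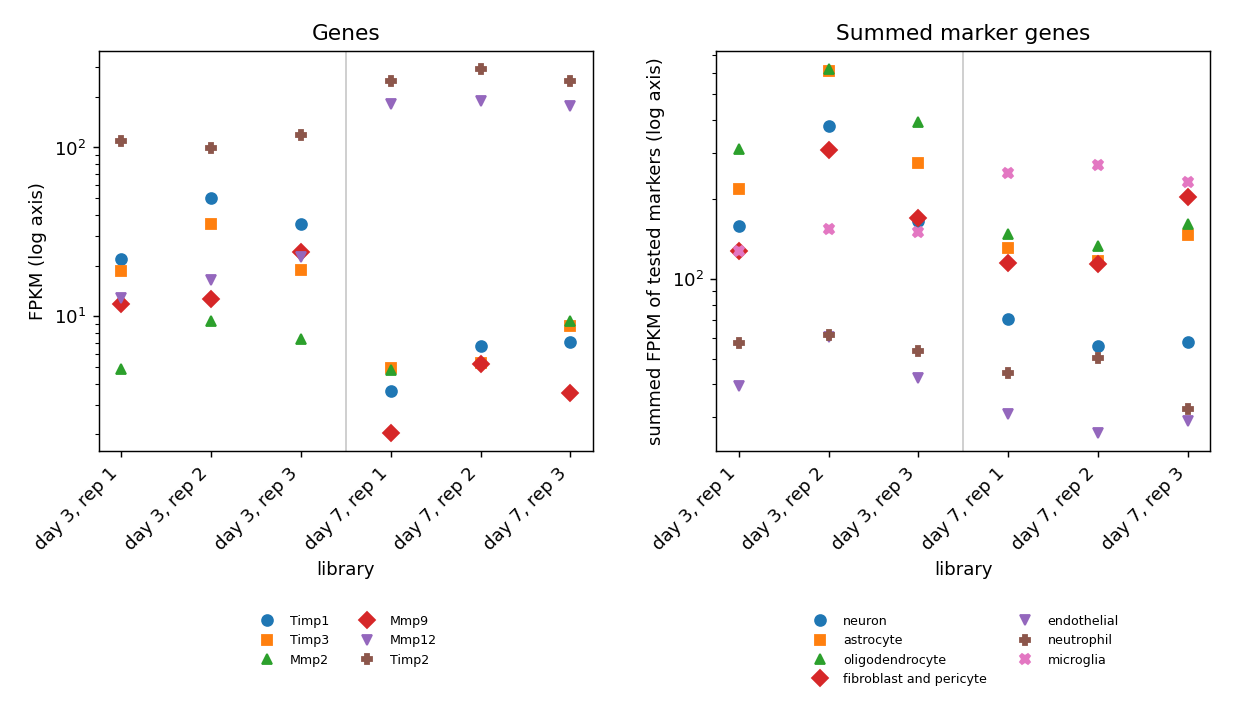
FPKM (log axis) of 6 of the genes (left) and summed FPKM of tested marker genes of 7 cell types (right) in each library. Timp1, Timp3, Mmp2 and the summed markers of neurons, astrocytes, oligodendrocytes and fibroblasts are highest among the 3-day libraries in replicate 2. Mmp12, Timp2 and the summed microglia markers are higher at 7 days.

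Other myeloid markers moved beside the genes that rose or fell. Counts are of limma calls, beside 18.8% called higher and 20.3% called lower among all tested genes. Of the 5 microglia markers given here, 4 rose (P2ry12, Tmem119, Olfml3 and Fcrls). The sums of the 5 were 127 to 154 FPKM at 3 days and 233 to 269 FPKM at 7 days. Sall1, the remaining marker, was low and went the other way, from 0.845 ± 0.489 to 0.167 ± 0.194 FPKM. It was not called (log2 -0.64 ± 0.25, SE; limma adjusted p = 0.0835). Inflammatory monocyte markers fell in 4 of 6 (458 to 525 and 172 to 226 FPKM). Their part in the rise of Mmp12 and Timp2 or the fall of Mmp9 was not tested.

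The rank of the genes by FPKM changed between the times. At 3 days the order of the means was Timp2, Timp1, Mmp8, Timp3, Mmp19, Mmp12, Mmp9, Mmp2 and Mmp13. Timp2 above Timp1 and Mmp9 above Mmp2 were the neighbours whose ranges over libraries did not overlap. Within each 3-day library, Timp1 was also above Mmp8 and Mmp19 above Mmp12. Mmp8 and Timp3, Timp3 and Mmp19, Mmp12 and Mmp9, and Mmp2 and Mmp13 changed places between the 3-day libraries. At 7 days the order was Timp2, Mmp12, Mmp8, Mmp19, Mmp2, Timp3, Timp1, Mmp9 and Mmp13. The first 4 steps, from Timp2 down to Mmp2, were each between libraries that did not overlap, and the ranges of the genes from Mmp2 to Mmp13 overlapped with those of their neighbours. Within each 7-day library, Timp1 was above Mmp9 and Mmp9 above Mmp13.

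The makeup of each class narrowed to 1 leading gene. The 6 metalloproteinases among the 9 genes summed to 79.6, 88.1 and 114.0 FPKM at 3 days and to 243, 263 and 254 FPKM at 7 days. Mmp12 made up 16.1% to 19.6% of that sum at 3 days and 68.9% to 74.2% at 7 days, while Mmp9 went from between 14.4% and 20.95% to between 0.839% and 1.98%. The 3 TIMPs summed to 149, 186 and 172 FPKM at 3 days and to 257, 303 and 264 FPKM at 7 days. Timp2 was 53.8% to 72.8% of the TIMP sum at 3 days and 94.0% to 96.7% at 7 days.

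The ratio of the metalloproteinase sum to the TIMP sum was 0.475 to 0.662 at 3 days and 0.867 to 0.963 at 7 days. These sums leave out Mmp14, the 9 other metalloproteinases with a row and Timp4, and are given without a test. Of those left out, Mmp27 was above Mmp19 in every 7-day library. The ratio of Mmp9 to Timp1 was 0.542, 0.251 and 0.678 at 3 days and 0.567, 0.780 and 0.499 at 7 days. The times overlapped in that ratio, although both genes fell.

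**Figure D4:**
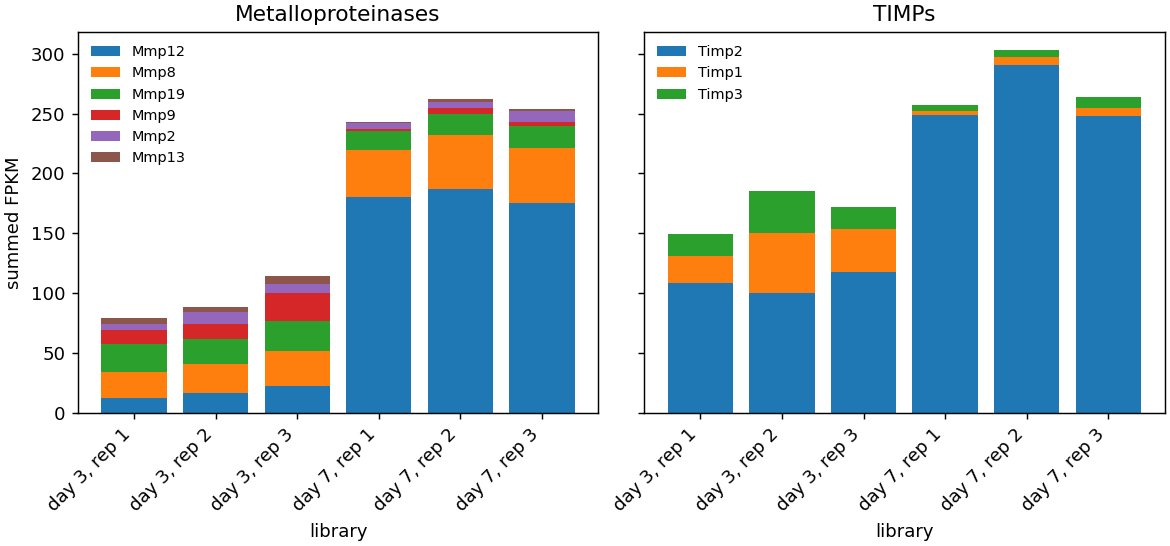
Summed FPKM (linear axis from 0) of the 6 metalloproteinases and the 3 TIMPs in each library, stacked by gene. Mmp12 fills 68.9% to 74.2% of the metalloproteinase bars at 7 days and Timp2 fills 94.0% to 96.7% of the TIMP bars.

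Further metalloproteinases were mostly of low level. Of the 10 other family genes tested (9 metalloproteinases and Timp4), 1 was called higher by limma (Mmp27) and 4 lower, beside 18.8% and 20.3% of all tested genes. Their median log2 difference was -0.62. Mmp16, a membrane-type enzyme, fell from 7.89 ± 1.39 to 1.64 ± 0.410 FPKM (log2 -1.75 ± 0.19, SE; limma adjusted p = 8.97e-04). The membrane-type enzymes Mmp15 and Mmp24 fell from 1.99 ± 0.817 to 0.0932 ± 0.0833 FPKM and from 2.31 ± 1.23 to 0.297 ± 0.242 FPKM. Mmp24 was not called with quantile normalization (adjusted p = 0.0684). Mmp1a, Mmp1b, Mmp3, Mmp7, Mmp10, Mmp20 and Mmp21 have no row.

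**Figure D5:**
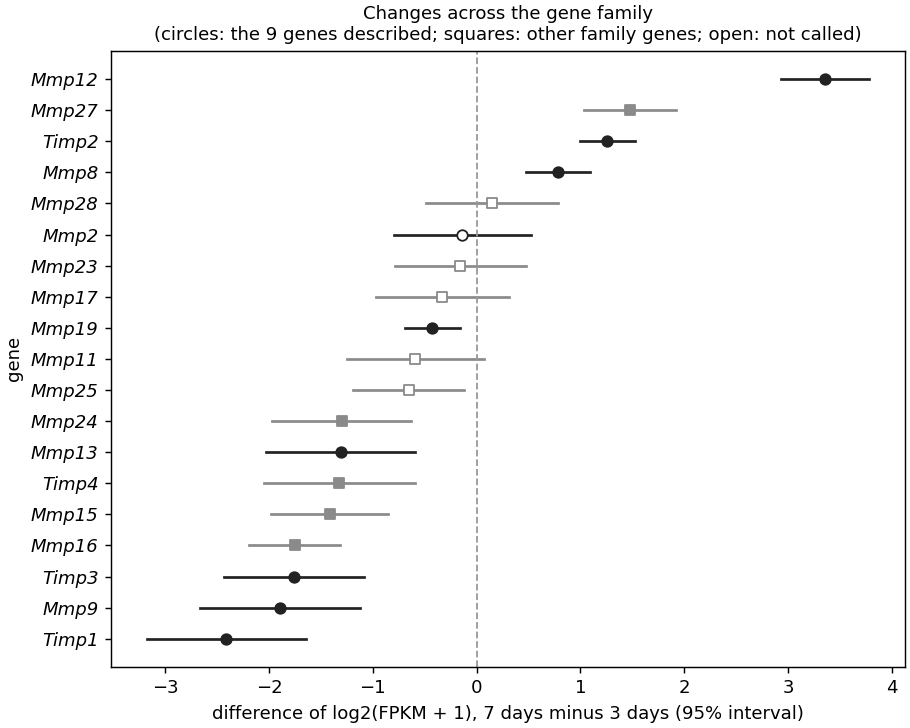
Difference of log2(FPKM + 1), 7 days minus 3 days, with its 95% interval from limma, for the 9 genes (circles) and 10 other family genes (squares), open where not called. Mmp12 at 3.35 is highest and Timp1 at -2.41 is lowest.

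Some related proteases of the ADAM and ADAMTS families are also restrained by TIMPs. Of 13 tested, 1 was called higher and 7 lower (median log2 difference -0.53), beside 18.8% and 20.3% of all tested genes. The gene called higher was Adam17, which sheds Tnf from the cell surface and was named after its value was seen (log2 0.71 ± 0.17, SE; limma adjusted p = 0.0143). The secreted proteases Adamts1, Adamts9, Adamts5 and Adamts4 fell. Adamts1 fell from 18.1 ± 6.50 to 4.65 ± 1.62 FPKM, and its profile over the 6 libraries was the closest to that of Timp3 among all tested genes. Adam12, a membrane-bound member, fell from 7.70 ± 1.65 to 4.03 ± 0.811 FPKM, but was not called without 7-day replicate 2 (adjusted p = 0.0604). Adamts4 was not called with quantile normalization or without 7-day replicate 2 (adjusted p = 0.0658 and 0.0576).

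Genes that activate, anchor or remove metalloproteinases numbered 15 tested, of which 3 were called higher and 6 lower (median log2 difference -0.25), beside 18.8% and 20.3% of all tested genes. Furin, the protease that activates membrane-type metalloproteinases, fell from 58.7 ± 10.8 to 25.2 ± 2.23 FPKM (log2 -1.17 ± 0.15, SE; limma adjusted p = 0.00163). Pcsk5, a related convertase, fell from 3.06 ± 1.33 to 0.782 ± 0.539 FPKM (adjusted p = 0.0242). It was not called with quantile normalization (adjusted p = 0.184), or without 3-day replicate 1 or 2 or 7-day replicate 1 or 3 (adjusted p up to 0.0794). Plau, the urokinase that starts the plasmin cascade, rose from 63.4 ± 2.74 to 151 ± 8.68 FPKM (log2 1.23 ± 0.09). Thbs1, a matrix protein that binds metalloproteinases, fell from 975 ± 198 to 196 ± 5.72 FPKM (log2 -2.29 ± 0.17).

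The scavenger receptor Lrp1, which takes up metalloproteinases and TIMPs, measured 466 ± 92.2 and 560.4 ± 0.388 FPKM and was not called (limma adjusted p = 0.192). It was called without 3-day replicate 1 (adjusted p = 0.0451). Cd44, a surface anchor for Mmp9, measured 10.6 ± 2.70 and 10.2 ± 0.626 FPKM (adjusted p = 0.894), with a 95% interval of the log2 difference from -0.44 to 0.38. Reck, a membrane inhibitor, was near the lower end of detection, with means of 0.524 ± 0.577 and 0.975 ± 1.47 FPKM. Bsg, a surface glycoprotein known to induce metalloproteinases, rose by 0.41 ± 0.11 (adjusted p = 0.0268). Quantile normalization ended that call (adjusted p = 0.0973), as did leaving out any library except 3-day replicate 3.

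Among matrix genes whose proteins these enzymes cut, 6 of 10 tested were called lower and 0 higher by limma (median log2 difference -0.96, beside 20.3% and 18.8% called lower and higher among all tested genes), with 0 higher at an unadjusted p under 0.05 and 0 by the authors' deposited q-value. Fibronectin, Fn1, fell from 580.1 ± 101 to 122 ± 20.5 FPKM, and Tnc (tenascin C) from 63.3 ± 30.9 to 5.63 ± 2.55 FPKM. The versican gene Vcan fell from 25.2 ± 5.13 to 4.59 ± 1.01 FPKM, and Nid1, which encodes the basement membrane protein nidogen, from 23.6 ± 7.78 to 7.62 ± 1.60 FPKM. The fibrillar collagen genes Col1a1 and Col1a2, whose product Mmp8 and Mmp13 cut, were not called (limma adjusted p = 0.875 and 0.949). Col1a1 measured 16.6 ± 10.9 and 16.5 ± 6.95 FPKM, and Col1a2 measured 99.4 ± 40.03 and 96.5 ± 35.2 FPKM. The 95% intervals of their log2 differences ran from -0.91 to 1.09 and from -0.79 to 0.73. Col5a2 and Lamb1 were not called either, and these 4 uncalled genes were named after their values were seen. Sparc was called lower, but not without 3-day replicate 3, 7-day replicate 1 or 7-day replicate 2 (adjusted p up to 0.0885). Another 6 genes of this list, Eln among them, did not pass the quality rules and were not tested.

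Of 15 tested transcription factors and cytokines known to act on metalloproteinase genes, 10 were called lower and 0 higher by limma (median log2 difference -0.73). Among all tested genes, 20.3% were called lower and 18.8% higher. Of the 15, 0 were higher at an unadjusted p under 0.05 and 0 by the authors' deposited q-value. Fos, a subunit of AP-1, measured 26.5, 24.2 and 24.7 FPKM at 3 days and 8.93, 10.7 and 12.8 FPKM at 7 days (log2 -1.16 ± 0.14, SE; limma adjusted p = 0.00121). Its relative Fosl1 fell from 2.02 ± 0.415 to 0.459 ± 0.135 FPKM. Jun, the partner of Fos in AP-1, measured 50.0008 ± 9.39 and 37.7 ± 6.36 FPKM and was not called (log2 -0.39 ± 0.17, SE; limma adjusted p = 0.107). Runx2, Il6, Tgfb1 and Osm were not called either, and these 5 uncalled genes were named after their values were seen. The Ets factors Ets2 and Etv5 fell from 16.6 ± 2.35 to 6.43 ± 0.688 FPKM and from 27.7 ± 6.03 to 12.4 ± 0.351 FPKM, and the cytokine Il1b from 5.75 ± 1.07 to 1.89 ± 0.221 FPKM.

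For each of the 9 genes, up to 3 tested genes with the most similar profile over the 6 libraries are given. The measure was the root mean square difference of log2(FPKM + 1) after centring each gene on its own mean, and all 6 libraries share their depth and the difference between times. Mmp12 was nearest to Mfge8, Mcoln3 and Cd28 (0.181 to 0.202). Mmp9 was nearest to Pdpn, Ms4a8a and Ly6a (0.209 to 0.265). Mmp13 was nearest to Slc35d1, Tlcd1 and Myl6b (0.211 to 0.222). These 3 genes had no closer neighbour than 0.181.

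Closer matches were found for the others. Timp2 was nearest to Daglb, Galc and Sirpa (0.0672 to 0.0706), and Galc encodes a lysosomal galactosidase that breaks down myelin lipids. Timp3 was nearest to Adamts1, Gas5 and Grm7 (0.0532 to 0.0849). Timp1 was near to Tm4sf1 (0.166) and S100a16 (0.172), and both of these fell. Mmp8 was nearest to Arl6ip1, Gstt2 and Tmem26 (0.0574 to 0.0613), Mmp19 to Xpnpep1, Mpi and Gpc1 (0.0320 to 0.0449) and Mmp2 to Gm25822, Ptges and Hdhd3 (0.0774 to 0.0921).

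The authors' deposited table gives a log2 fold change with the same sign for each of the 9 genes, from 3.40 for Mmp12 to -2.63 for Timp1. In the authors' deposited table the q-value is 0.000313 for Mmp8, Mmp9, Mmp12, Mmp13, Timp1, Timp2 and Timp3, 0.0358 for Mmp19 and 0.710 for Mmp2. Their filtered table keeps 8 of the 9 genes and leaves out Mmp2.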

How the data were processed

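Per the labels' protocols, RiboTag precipitates gave RNA for ScriptSeq v2 libraries. TopHat2 2.0.12, Cufflinks 2.2, Cuffdiff 2.2.1 and mm10 are named in the submitters' processing notes, without role or order. Per the file headers, the authors deposited FPKM per library and time, a log2 fold change, a test statistic score, and p-values and q-values. Library scaling and strand use are not given in the sources used here. Depth is unknown, so values have no counting interval.

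The unfiltered table has 13960 rows. Before testing, 918 were set aside: 45 with a status other than OK, 838 with a mean of the library values more than 1% away from the deposited mean, 14 with a 0 in some library although another reached 100 FPKM, and 32 of repeated symbols (some meet several). The other 13042 genes were fitted on log2(FPKM + 1) with limma 3.58.1 (mean-dependent prior variance, R 4.3.3), without a low-value filter, and the scripts were tested on simulated data. Python 3.11.15 did the rest. Members and lists were chosen with earlier results of these data known. Besides the family genes, up to 5 called genes of each list with the largest log2 differences were named (if either time's mean reached 1 FPKM), and Mmp25, Timp4, Reck, Bsg, Furin, Cd44, Lcn2, Lrp1 and the synapsins always. A microglia marker and a gene with a profile close to that of Timp1 are not reported here. Symbols are the authors', gene coordinates GENCODE M21, promoters RefSeq. Alternatives covered pseudocount, filters, scaling, prior variance, a replicate block and each library left out.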

Additional observations from a re-analysis of the deposited data

How the results depend on the processing

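The 9 family genes had 143 values under alternatives, the authors' deposited result for each gene among them. Of these, 138 kept their side of the threshold, 5 lost the call and 0 reversed the direction of a called gene. The uncalled Mmp2 changed sign without 3-day replicate 2 (log2 difference 0.05) and without 7-day replicate 1 (0.02). The lost calls were those of Mmp13 and Mmp19 given above. Leaving out each library gave 3 family genes higher throughout and 3 to 5 lower, with 3 lower without 3-day replicate 3. Over all genes it gave 1572 to 2207 higher and 1697 to 2565 lower, the lowest counts without 7-day replicate 2. With all libraries, more genes were lower (2645) than higher (2453). That balance turned in the genes of the authors' filtered table, where fewer genes were tested (2359 higher, 1419 lower), with quantile normalization (2317 and 1809), with libraries centred on the median gene (2920 and 2321) and with a mean of at least 1 FPKM (2486 and 2172). For the other named genes, 444 of 479 such values kept their side of the threshold, 29 lost the call and 6 gained it. In 0 of them did a called gene reverse its direction. With the replicate number as a block, 2450 genes were higher and 2425 lower, turning it as well, and 8 family genes were called, as without it. Deviations of same-numbered libraries correlated with r of 0.005 to 0.1, so the numbers were not taken to pair the libraries, and of the 3-day libraries replicate 1 alone correlated best with its own number. The unknown depth limits the low genes, Mmp13 and Mmp25 among them.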
